A study of Mus musculus with 24 samples.

Results

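The mitochondrial genome of the mouse carries the 37 genes whose symbols start with mt-, and every gene with such a symbol in both deposited tables was taken as a member, which gave 37 of 55421 genes. They comprised 13 protein-coding genes, 2 ribosomal RNA (rRNA) genes and 22 transfer RNA (tRNA) genes, and all 37 identifiers lay on the mitochondrial chromosome (chrM) of mm10 in the GENCODE M21 annotation. Messenger RNA sequencing covered yolk sacs and whole embryos of C57BL/6 mice at embryonic day 9.5. The study compared a Setd2 null allele and a Setd2 catalytic dead allele, the CD line, whose mutation was taken from a patient according to the series title. SETD2 is the methyltransferase that places the third methyl group on lysine 36 of histone H3. Each line and tissue held homozygous (HO), heterozygous (HE) and wild-type (WT) samples with 2 libraries per group, so there were 24 libraries. Each line had its own WT group. Nothing in the labels ties replicates to separate animals, and the p-values below reflect only how far these libraries spread.

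Mitochondrial DNA is transcribed from both strands as long precursors by the polymerase POLRMT with the factors TFAM and TFB2M. In most of the genome tRNAs sit between the other genes, and their excision releases the rRNAs and mRNAs. The mRNAs encode subunits of respiratory complexes I, III and IV and of ATP synthase, and the rRNAs build the mitochondrial ribosome. Most mitochondrial mRNAs carry short poly(A) tails, and mature tRNAs carry none, which matters because libraries were made with an mRNA kit per the labels. In bulk samples, fewer cells of a type and less RNA per cell cannot be told apart, and this holds for every result below.

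Both the total per library and the Setd2 transcript touch these results. Total counts were 16400137 to 22113787 in yolk sac libraries and 23414255 to 27674831 in embryo libraries. In null embryos Setd2 was at 93.3 and 104 CPM (counts scaled to the library total after TMM adjustment) in HO, at 169 and 157 CPM in HE, and at 232 and 229 CPM in WT libraries. In null yolk sacs it was at 75.5 and 78.9 CPM in HO, at 114 and 120 CPM in HE and at 102 and 114 CPM in the libraries labelled WT. In CD yolk sacs it was at 192 to 194 CPM in HO, at 170 to 189 CPM in HE and at 178 to 190 CPM in WT libraries. Setd2 was thus not higher in the WT than in the HE libraries of null yolk sacs (change of HE over WT 0.11, SE 0.09, adjusted p = 0.9998), which goes against the label, and this WT group is called "labelled WT" below. In 11 yolk sac libraries the number of genes at a count of 2 was 0.942 to 1.01 times the number at a count of 1. In the remaining yolk sac library, CD HO replicate 2, this ratio was 0.63, and in embryo libraries it was 0.554 to 0.662. That library stands apart from its tissue, so the CD homozygous yolk sac results below are also given without it.

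The tRNA genes are shown first because nearly all of their counts fell on 1 strand and on 1 gene. Sequences are in the sense of each gene, from the GENCODE M21 transcripts on mm10. mt-Tp (chrM:15356-15422, minus strand), mt-Tc (chrM:5192-5257, minus strand) and mt-Te (chrM:14071-14139, minus strand) had the most counts, and mt-Tt (chrM:15289-15355, plus strand) is the neighbour of mt-Tp on the opposite strand.
mt-Tp: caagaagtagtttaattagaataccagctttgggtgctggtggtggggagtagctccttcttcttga
mt-Tc: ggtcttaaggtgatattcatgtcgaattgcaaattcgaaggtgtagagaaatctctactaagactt
mt-Te: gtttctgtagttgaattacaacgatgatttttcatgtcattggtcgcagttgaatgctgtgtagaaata
mt-Tt: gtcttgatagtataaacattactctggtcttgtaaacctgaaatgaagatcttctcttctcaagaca
mt-Tp, the tRNA for proline, held 6938 counts over the 12 yolk sac libraries and 7156 over the 12 embryo libraries. These were 94.7% of all mitochondrial tRNA counts in yolk sacs and 98.7% in embryos. mt-Tt, the tRNA for threonine, which ends at the base next to mt-Tp, had 0 counts in all 24 libraries. The 8 minus-strand tRNA genes together had 7315 counts in yolk sacs and 7246 in embryos, and 6 of them had a count. The 14 plus-strand tRNA genes had 9 counts in yolk sacs and 4 in embryos, and 2 of them had a count. In all, 14 tRNA genes had no count in either tissue. mt-Te, the tRNA for glutamate, had 60 counts in yolk sacs and 10 in embryos, and its count was an even number in each yolk sac library. The sources used here do not say whether strand was used in counting, and reads of a tRNA cannot be told from reads of a precursor that runs through it.

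The 13 mRNAs made up the bulk of the members' counts. They took 3.61% to 4.62% of all counts in yolk sac libraries and 1.36% to 2.08% in embryo libraries. The 2 rRNAs took 0.287% to 0.454% in yolk sacs and 0.0681% to 0.126% in embryos. The 22 tRNAs took 0.00193% to 0.00392% in yolk sacs and 0.00175% to 0.00383% in embryos. Per 100 mRNA counts there were 7.03 to 10.6 rRNA counts in yolk sacs and 3.7 to 6.65 in embryos, so the tissues did not overlap in this ratio.

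**Figure D1:**
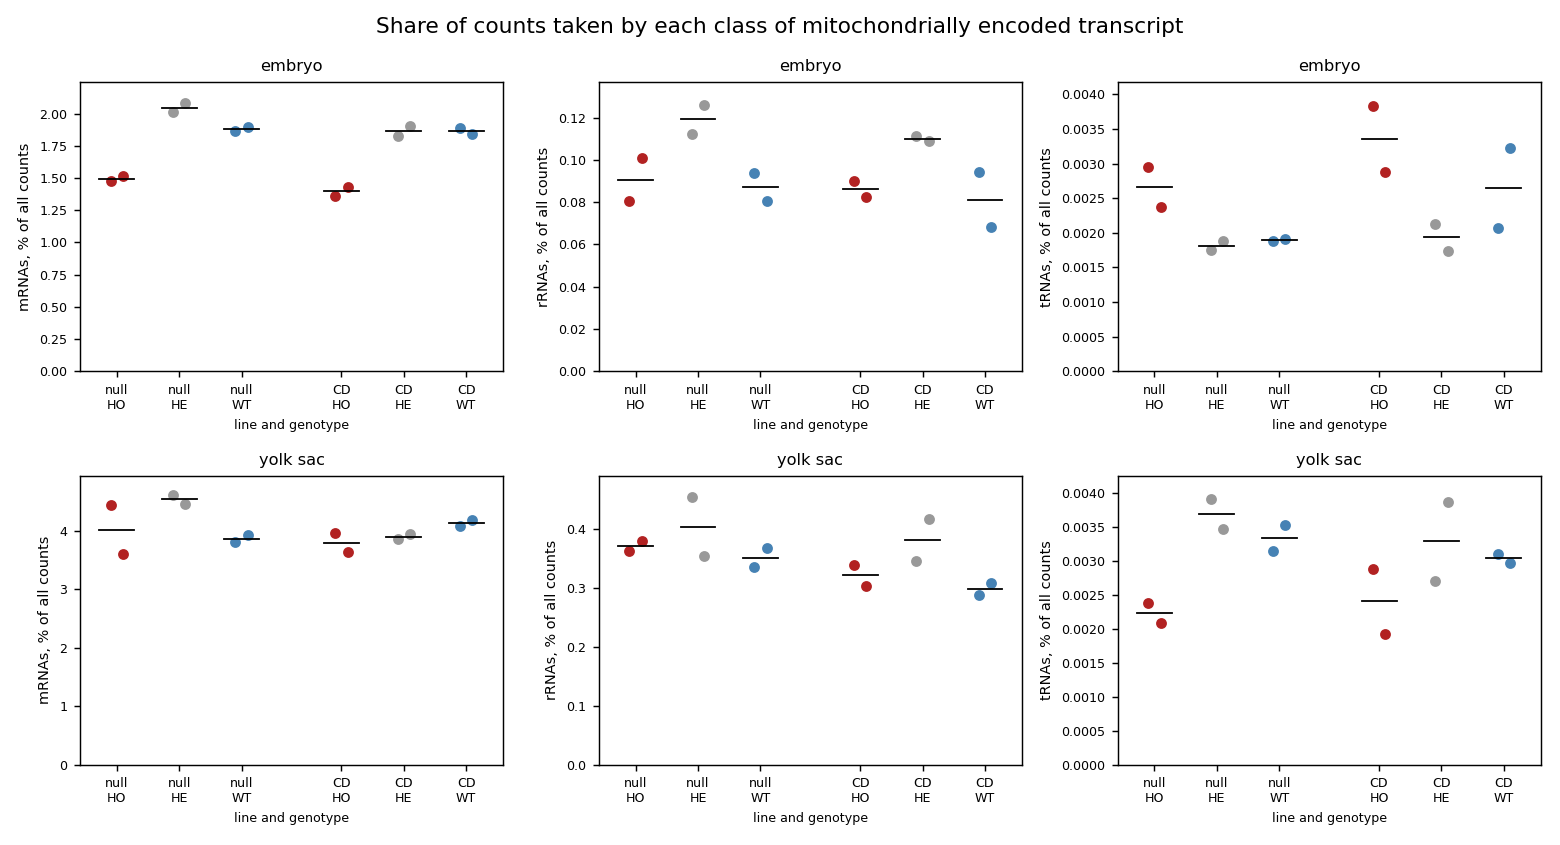
Share of all counts per library (%, vertical axes) taken by the 13 mRNAs, the 2 rRNAs and the 22 tRNAs, for HO, HE and WT libraries of each line; each point is 1 library. The 4 HO embryo libraries sit at 1.36% to 1.52% for mRNAs, below the 8 HE and WT embryo libraries at 1.83% to 2.08%, while in yolk sacs null HO libraries (3.61% and 4.44%) enclose the labelled WT libraries and CD HO libraries (3.64% and 3.97%) lie below the CD WT libraries (4.09% and 4.18%).

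Within the protein-coding genes the levels per length formed a high and a low class. mt-Co1, a catalytic subunit of complex IV, was highest in both tissues, followed by mt-Nd1, a subunit of complex I, and mt-Cytb, the complex III subunit cytochrome b. In WT libraries 7 mRNAs had mean levels of 2119 to 7690 CPM per kb in yolk sacs and 995 to 3712 CPM per kb in embryos. The lowest of these was mt-Nd4 in both tissues. The other 6 mRNAs, mt-Co2, mt-Atp8, mt-Atp6, mt-Co3, mt-Nd3 and mt-Nd4l, are neighbours on chrM and had 3.87 to 46.8 CPM per kb in yolk sacs and 2.5 to 49.6 CPM per kb in embryos. These 6 held 0.167% of all mitochondrial mRNA counts in yolk sacs and 0.359% in embryos. mt-Nd6, a complex I subunit and the only mRNA of the minus strand, reached 82.1 to 98.1 counts per 100 of mt-Nd5 per length in yolk sacs, and 75.3 to 85.6 in embryos. mt-Nd5 and mt-Nd6 overlap by 14 bases on opposite strands.

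Of the 6 low mRNAs, 5 have an annotated copy in the nuclear genome that is identical or nearly so. On chromosome 1 of mm10, 7 annotated copies on the minus strand lie between chr1:24611535-24616197 and match mt-Co1 to mt-Nd4. Gm28661 was identical to mt-Co2 over 681 bases, Gm10925 to mt-Atp6 over 678 bases and Gm28437 to mt-Co3 over 783 bases. Gm10222 was identical to mt-Nd4l over 294 bases and Gm28439 to part of mt-Nd4 over 876 bases. Gm29216 differed from part of mt-Co1 at 6 of 492 bases. Gm28438 differed from mt-Nd3 at 1 of 345 bases. mt-Nd4l (chrM:9877-10173, plus strand) and its copy Gm10222 (chr1:24612407-24612700, minus strand) are printed to show a pair with no differing base where they align. Capitals mark end bases that lie outside the annotated copy. They are not bases known to differ on chromosome 1.
mt-Nd4l: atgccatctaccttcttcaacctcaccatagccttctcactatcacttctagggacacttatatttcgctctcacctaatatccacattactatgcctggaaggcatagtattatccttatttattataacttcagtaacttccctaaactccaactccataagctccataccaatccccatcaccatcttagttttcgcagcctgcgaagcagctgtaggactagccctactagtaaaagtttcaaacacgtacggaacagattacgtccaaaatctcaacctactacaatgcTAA
Gm10222: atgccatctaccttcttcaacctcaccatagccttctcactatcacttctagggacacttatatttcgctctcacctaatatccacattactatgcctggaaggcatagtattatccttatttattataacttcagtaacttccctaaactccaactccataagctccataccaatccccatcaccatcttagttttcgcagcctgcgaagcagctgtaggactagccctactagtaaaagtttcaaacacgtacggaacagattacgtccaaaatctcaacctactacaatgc
Of all stretches of 50 bases in each gene, 98% of mt-Nd3, 98.8% of mt-Nd4l, 99.5% of mt-Co2, 99.5% of mt-Atp6 and 99.9% of mt-Co3 also occurred in a copy. The share was 62.2% for mt-Nd4 and 28.7% for mt-Co1. It was 0% for the other members, mt-Atp8 included. Over all other GENCODE M21 transcripts, the share was 51.1% for mt-Co1, 8.19% for mt-Nd2, 7.61% for mt-Nd5, 1.04% for mt-Rnr2, 100% for mt-Co2 and again 0% for mt-Atp8. mt-Atp8, a small subunit of ATP synthase, is shown because it is the lowest mRNA and had no 50-base stretch in other annotated transcripts. Its last 43 bases overlap mt-Atp6, which Gm10925 matched over 678 bases. They are shorter than the 50-base stretch, so a match there could not be counted. The rest of mt-Atp8 falls in the 233 bases between the annotated ends of Gm10925 and Gm28661. Only annotated transcripts were searched, so whether those bases match mt-Atp8 was not tested. The last 43 bases of mt-Atp8 (chrM:7766-7969, plus strand), in capitals, overlap mt-Atp6.
mt-Atp8: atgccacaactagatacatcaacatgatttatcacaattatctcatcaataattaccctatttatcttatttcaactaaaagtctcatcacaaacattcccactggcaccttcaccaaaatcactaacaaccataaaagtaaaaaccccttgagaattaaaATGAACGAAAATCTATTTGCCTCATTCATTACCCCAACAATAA
The sources used here do not say how reads that match several places were counted, so the levels of these members are uncertain. The count of mt-Atp6 was 3386 in all yolk sac libraries and 3741 in all embryo libraries, and that of its copy Gm10925 was 9475 in yolk sac and 3099 in embryo libraries.

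**Figure D2:**
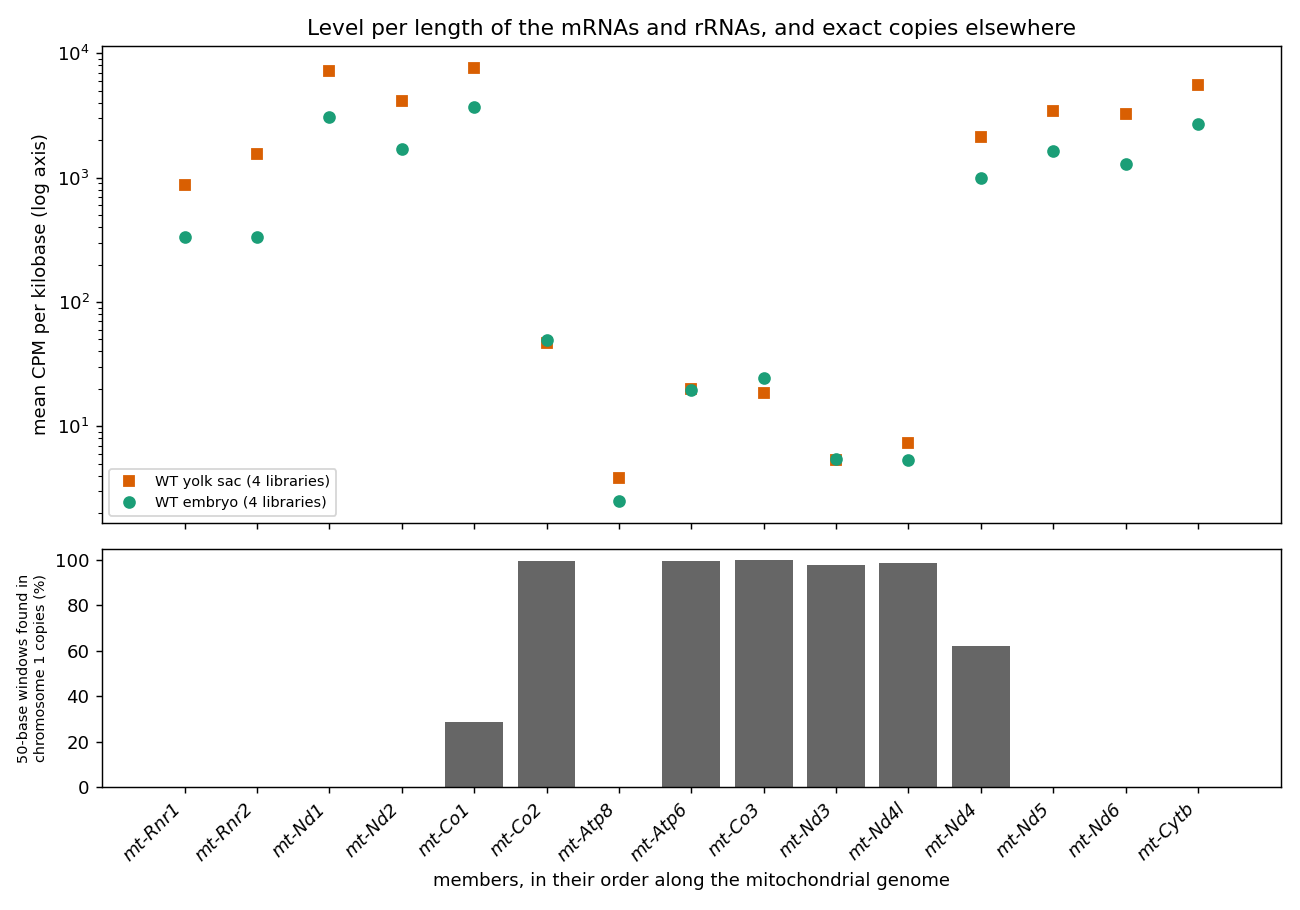
Mean level in WT libraries (CPM per kb, log axis) of the mRNAs and rRNAs in their order along chrM, squares for yolk sac and circles for embryo; the lower panel gives the percentage of 50-base stretches of each gene that also occur in the chromosome 1 copies. The 6 genes from mt-Co2 to mt-Nd4l sit at 2.5 to 49.6 CPM per kb and the other mRNAs at 995 CPM per kb or above.

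Mitochondrial mRNAs were lower in null HO embryos than in null WT embryos, while the rRNAs were not called. A gene is called here when its adjusted p was under 0.05 in edgeR's quasi-likelihood test with Benjamini-Hochberg adjustment over all genes tested. Of the 17 members that passed the filter on low counts, 11 were lower and 0 higher, where 32.7% of all 19215 genes were called, 16.2% higher and 16.5% lower. All 11 were mRNAs, out of 13 mRNAs tested. The median log2 change of the mRNAs was -0.37, against 0.01 over all genes tested. The shares of mRNAs in all counts were 1.47% and 1.52% in HO embryos, against 1.86% and 1.9% in WT embryos.

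mt-Nd4, a core complex I subunit, was at 1053 and 1030 CPM in null HO embryos, against 1340 and 1357 CPM in null WT embryos. It fell by 0.37 on the log2 scale (SE 0.05, adjusted p = 0.000312), to 77.2% of WT. mt-Co3, a complex IV subunit of the low class, was at 12.2 and 8.76 CPM in HO, against 18.5 and 21.7 CPM in WT embryos. HO and WT libraries did not overlap in either gene. mt-Co3 fell by 0.94 (SE 0.14, adjusted p = 0.000358). mt-Cytb was at 2367 and 2419 CPM in HO, against 3021 and 3141 CPM in WT embryos, and fell by 0.36 (SE 0.06, adjusted p = 0.000527). mt-Co1 was at 4740 and 4562 CPM in HO, against 5877 and 5873 CPM in WT embryos, and fell by 0.34 (SE 0.05, adjusted p = 0.000585). Again both HO libraries lay below both WT libraries. When single libraries were left out, 6 to 10 members were called, 6 of them without WT replicate 2. These 4 mRNAs, mt-Nd1 and mt-Atp6 stayed called each time, and mt-Nd2, mt-Co2, mt-Atp8, mt-Nd5 and mt-Nd4l did not.

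The other called mRNAs fell by 0.18 for mt-Nd2 to 1.22 for mt-Atp8 on the log2 scale. Among them mt-Nd1 changed by -0.32 (adjusted p = 0.00195) and mt-Atp6 by -0.52 (adjusted p = 0.00749). mt-Atp8 had few reads, 8 and 5 counts in HO against 15 and 17 counts in WT embryos. mt-Nd3 missed the threshold at -0.76 (adjusted p = 0.0735), with 31 and 28 counts in HO against 54 and 51 in WT embryos. mt-Nd6, transcribed from the other strand, was at 546 and 637 CPM in HO, against 626 and 655 CPM in WT embryos. The groups overlapped, and its change of -0.11 (SE 0.09, adjusted p = 0.344) was the smallest among the mRNAs. Whether mt-Nd6 differed from the plus-strand mRNAs was not tested.

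Neither rRNA was called in null embryos. mt-Rnr1, the small-subunit 12S rRNA, was at 265 and 440 CPM in HO, against 352 and 314 CPM in WT embryos. mt-Rnr2, the large-subunit 16S rRNA, was at 550 and 579 CPM in HO, against 583 and 478 CPM in WT embryos. The 2 HO libraries enclosed both WT libraries for mt-Rnr1. The changes were 0.08 for mt-Rnr1 (SE 0.17, adjusted p = 0.757) and 0.09 for mt-Rnr2 (SE 0.14, adjusted p = 0.666). The value of mt-Rnr1 rested on 1 library, since it was -0.35 without HO replicate 2 (adjusted p = 0.0321) and 0.40 without HO replicate 1 (adjusted p = 0.0121). mt-Tp was at 29.9 and 23.6 CPM in HO, against 18.7 and 18.8 CPM in WT embryos, a change of 0.51 (SE 0.20) that missed the threshold (adjusted p = 0.0674). It passed without HO replicate 2 (0.66, adjusted p = 0.0445), with DESeq2 (adjusted p = 0.0286), with only the groups compared in the fit (adjusted p = 0.0382) and without the filter (adjusted p = 0.000327). mt-Tc, the tRNA for cysteine, had 0 to 15 counts per embryo library and was not called.

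**Figure D3:**
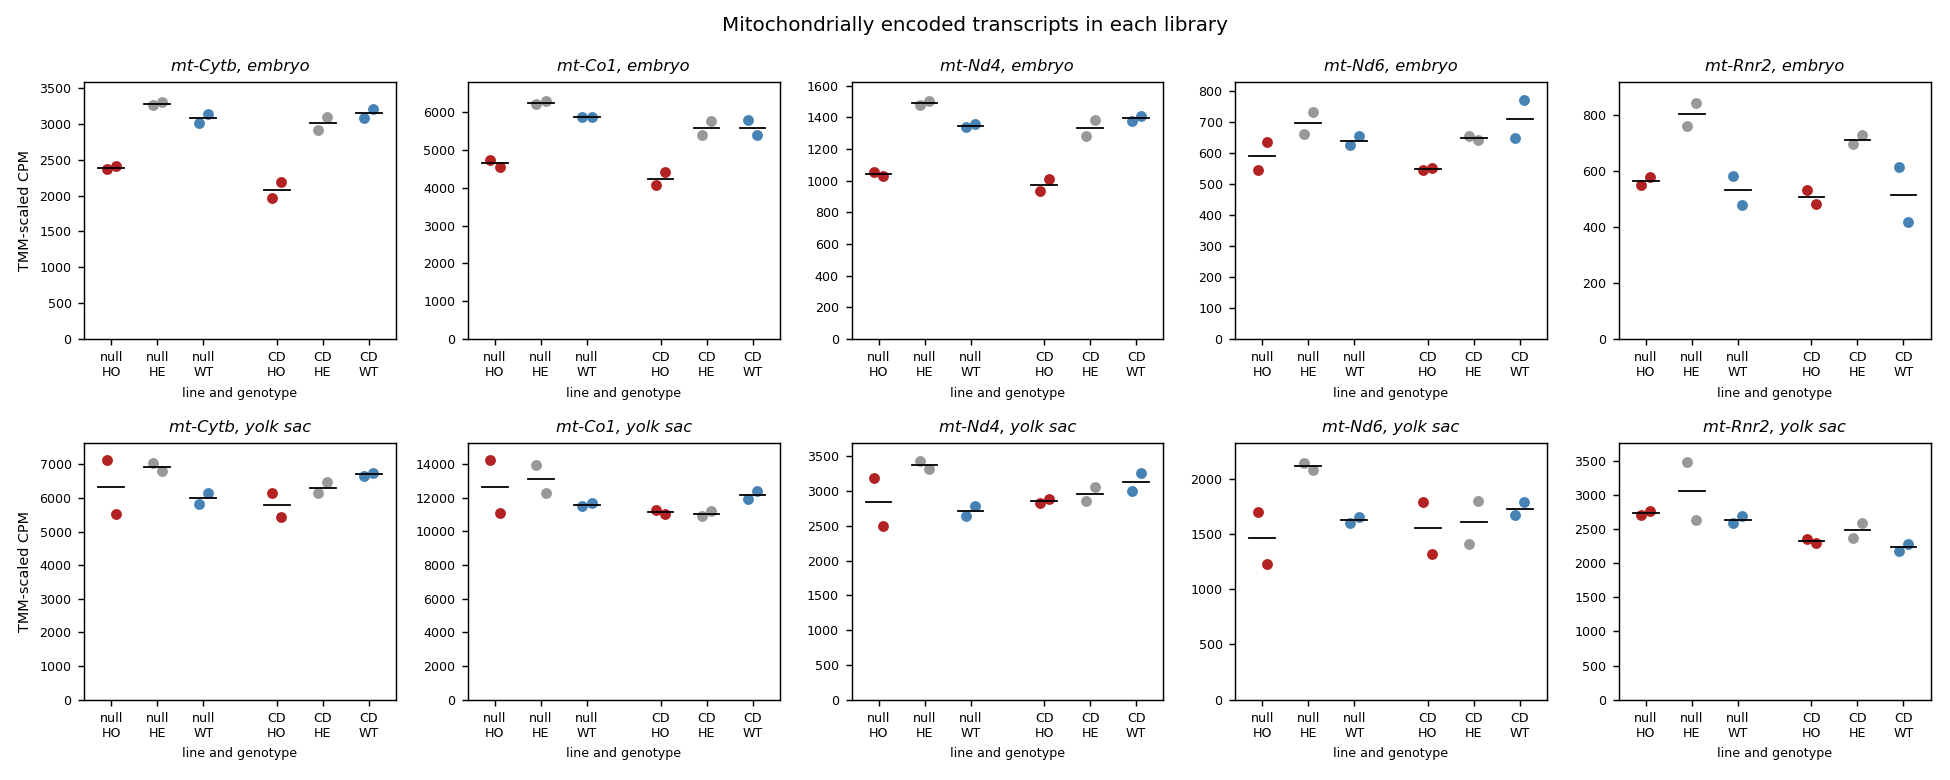
CPM of mt-Cytb, mt-Co1, mt-Nd4, mt-Nd6 and mt-Rnr2 in each library (points) with the group mean (bar), embryos in the top row and yolk sacs in the bottom row, HO left of HE and WT in each line. In embryos the HO points of mt-Cytb lie at 1968 to 2419 CPM, below all HE and WT points at 2921 to 3313 CPM, and in yolk sacs the null HO points lie on both sides of the labelled WT points, while the CD HO points at 5420 and 6141 CPM lie below the CD WT points at 6660 and 6744 CPM.

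The CD line gave lower mitochondrial mRNAs in HO embryos as well. Of 17 members tested, 10 were lower and 0 higher than in CD WT embryos, where 16.1% of all genes were called, 6.93% higher and 9.14% lower. All 10 were mRNAs, and the mRNA median was -0.46, against 0.00 over all genes tested. mRNAs took 1.36% and 1.43% of all counts in HO embryos, against 1.89% and 1.84% in WT embryos.

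mt-Cytb was at 1968 and 2196 CPM in CD HO, against 3084 and 3213 CPM in CD WT embryos, and fell by 0.60 (SE 0.06, adjusted p = 4.64e-05). mt-Nd4 was at 936 and 1013 CPM in HO, against 1379 and 1410 CPM in WT embryos, and fell by 0.52 (SE 0.05, adjusted p = 9.3e-05). These were the members with the smallest p, at 66.1% and 69.9% of WT. mt-Co1 was at 4075 and 4408 CPM in HO, against 5791 and 5398 CPM in WT embryos, and fell by 0.40 (SE 0.05, adjusted p = 0.000503). mt-Nd5, a complex I subunit, was at 2342 and 2320 CPM in HO, against 2917 and 3323 CPM in WT embryos, and fell by 0.42 (SE 0.06, adjusted p = 0.00119). None of these groups overlapped. mt-Nd6 was called in this line, with 546 and 553 CPM in HO, against 647 and 770 CPM in WT embryos (log2 change -0.37, SE 0.09, adjusted p = 0.0141; -0.25 and 0.0768 without WT replicate 2). mt-Nd3, mt-Nd4l and mt-Atp8, all low in counts, were not called, and mt-Atp8 changed by 0.05 (SE 0.42). When single libraries were left out, 6 to 8 members were called, 6 of them without HO replicate 1. The 4 mRNAs first named, mt-Nd1 and mt-Nd2 stayed called each time, and mt-Co2, mt-Atp6, mt-Co3 and mt-Nd6 did not.

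As in the null line, no rRNA was called in CD embryos. mt-Rnr1 was at 369 and 345 CPM in HO, against 323 and 280 CPM in WT embryos, a change of 0.24 (SE 0.17, adjusted p = 0.376). That change was -0.22 with a sex term (adjusted p = 0.698) and was called without the filter (0.23, adjusted p = 0.00413). mt-Rnr2 was at 531 and 483 CPM in HO, between the WT values of 615 and 416 CPM (change -0.03, SE 0.14, adjusted p = 0.928). mt-Tp was at 37.8 and 28.6 CPM in HO, against 20.5 and 32.6 CPM in WT embryos, and the groups overlapped. Its change was 0.32 (adjusted p = 0.296), and 0.68 without WT replicate 2 (adjusted p = 0.0257).

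**Figure D4:**
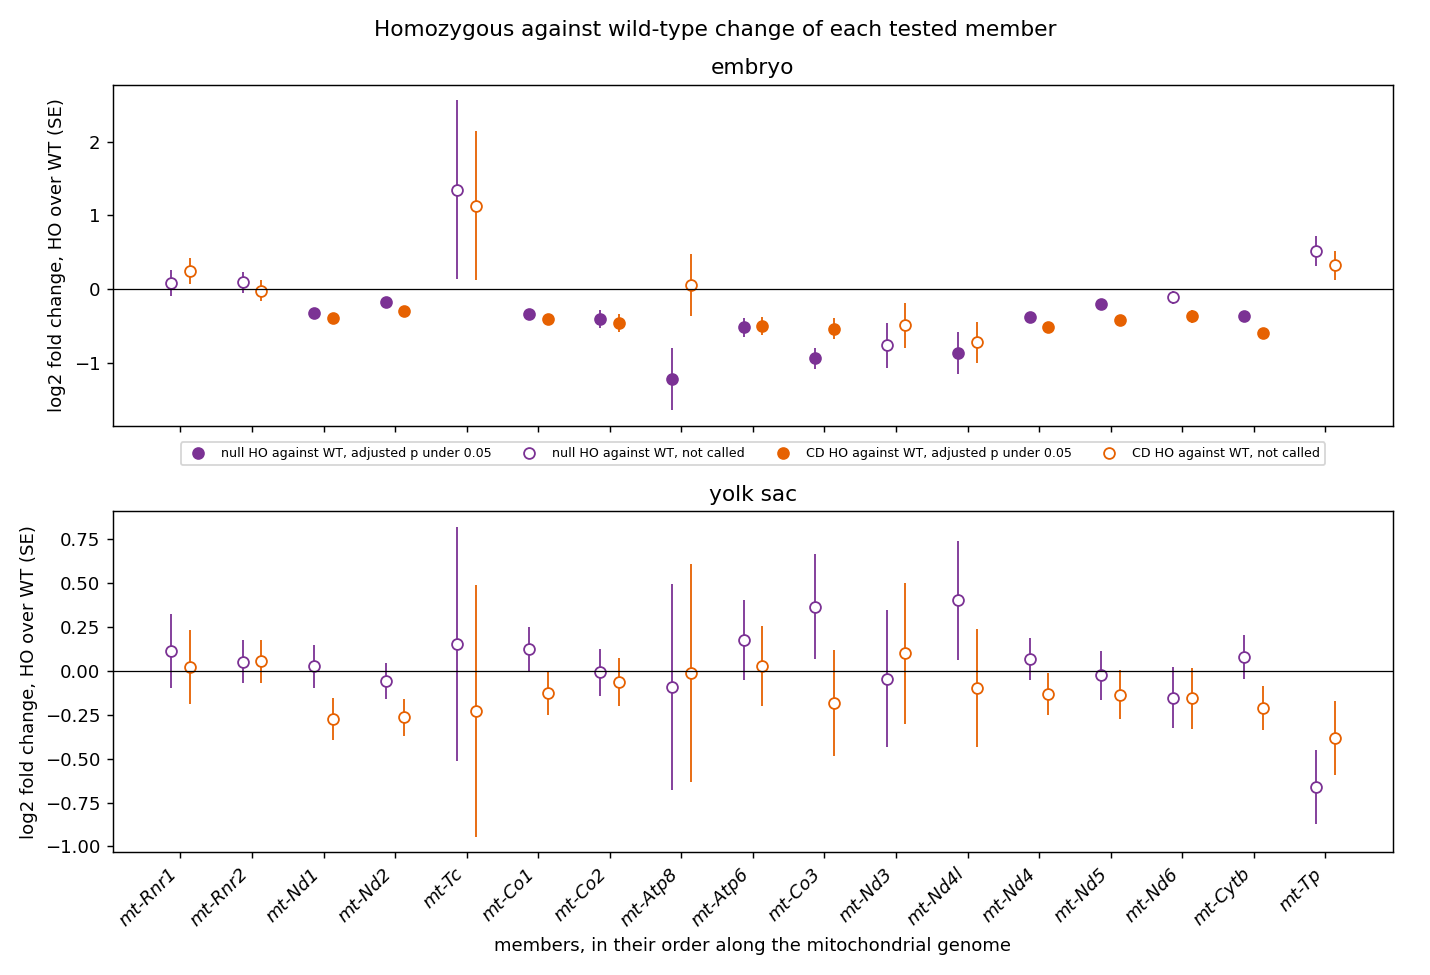
Log2 fold change of HO over WT with its standard error (vertical axes) for the 17 tested members in their order along chrM, embryos above and yolk sacs below; filled points had an adjusted p under 0.05. In embryos 11 members in the null line and 10 in the CD line are filled and all of these lie below 0; in yolk sacs none is filled.

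Sex transcripts and some of the cell type markers differed between the embryo groups. Both CD HO embryos carried the female transcript Xist, at 1507 and 1264 CPM. Both CD WT embryos had Xist at 0.963 and 1.33 CPM and Y-linked transcripts at 266 and 277 CPM. Genotype and sex thus cannot be told apart among these CD HO and WT embryos alone. In the null line Xist was at 3.2 and 1319 CPM in HO, at 1.12 and 0.993 CPM in HE and at 2116 and 2146 CPM in WT embryos. With a sex term, 3 members stayed called in CD HO against WT embryos (mt-Cytb -0.54, mt-Nd4 -0.41, mt-Nd5 -0.47), beside 300 genes overall in place of 3088. The changes of the members that lost the call were -0.20 to -0.54 with the sex term, for example -0.38 for mt-Nd1 (-0.39 without the term), -0.33 for mt-Nd2 (-0.30), -0.54 for mt-Atp6 (-0.50), -0.47 for mt-Nd6 (-0.37), -0.30 for mt-Co1 (-0.40) and -0.20 for mt-Co2 (-0.46). The female CD HE library had 2921 CPM of mt-Cytb, but as 1 library of another genotype it does not separate sex from genotype. Summed neural markers were at 172 to 286 CPM in HO embryos, against 341 to 452 CPM in HE and WT embryos. Cardiac markers summed to 1142 to 1572 CPM in HO embryos, against 1091 to 1377 CPM in HE and WT embryos. Endothelial markers summed to 292.6 to 467.5 CPM in HO embryos, against 310.1 to 358 CPM in HE and WT embryos. Neither of these 2 marker sets separated the genotypes. Summed markers of primitive red cells were at 1320 and 95.4 CPM in null HO embryos, against 2058 and 3038 CPM in null WT embryos. They were at 610 and 1600 CPM in CD HO, against 2283 and 1162 CPM in CD WT embryos. All 8 red cell markers and all 6 neural markers were detected in each embryo library. In the null HO embryos mt-Cytb was at 2367 and 2419 CPM, as given above. Visceral endoderm markers reached 751 CPM in CD WT replicate 2 and 94 CPM in replicate 1, against 15.6 and 10.8 CPM in CD HO embryos. Over both lines they summed to 10.8 to 77.7 CPM in HO embryos and 26.9 to 751 CPM in HE and WT embryos. Those ranges overlapped. Replication-dependent histone mRNAs, which lack poly(A) tails, summed to 19.5 to 32 CPM over 69 genes in HO embryos, against 36.9 to 45.7 CPM in HE and WT embryos. Other non-polyadenylated or nuclear-retained RNAs summed to 240.8 to 292.3 CPM in HO embryos, against 292.2 to 488.2 CPM in HE and WT embryos. Trophoblast and decidua markers, of which 2 to 4 of 6 were at 0 in each library, summed to 1.73 and 12.9 CPM in null HO and to 2.83 and 2.44 CPM in CD HO embryos, against 0.348 to 1.17 CPM in HE and WT embryos. The part of these differences in the mitochondrial results was not tested.

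Set against heterozygotes, homozygous embryos again had lower mitochondrial mRNAs. These comparisons share the HO libraries with those above. In null embryos 11 members were lower and 1 higher, where 30.3% of all genes were called, 15.2% higher and 15.1% lower. In CD embryos 10 were lower and 1 higher, where 22.1% of all genes were called, 10.2% higher and 11.9% lower. mt-Nd4 changed by -0.52 (SE 0.05) in the null line and by -0.45 (SE 0.05) in the CD line, against HE embryos with 1480 and 1502 CPM and with 1281 and 1386 CPM. When single libraries were left out, 9 to 12 members were called in the null line and 6 to 7 in the CD line, 6 of them without HO replicate 1.

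mt-Rnr2 and mt-Tp were called against heterozygotes and not against WT, and they moved in opposite directions. mt-Rnr2 was at 550 and 579 CPM in null HO against 762 and 844 CPM in null HE embryos (change -0.51, SE 0.14, adjusted p = 0.0181). It was at 531 and 483 CPM in CD HO against 697 and 728 CPM in CD HE embryos (change -0.49, SE 0.14, adjusted p = 0.0279). mt-Tp was higher in HO than in HE, by 0.58 in the null line (adjusted p = 0.0462) and by 0.84 in the CD line (adjusted p = 0.0107). Its HE libraries were at 17.5 and 18.4 CPM in the null line and at 20.4 and 16.7 CPM in the CD line, below every HO library. These 4 calls were not stable: with single libraries left out, adjusted p reached 0.124 and 0.153 for mt-Rnr2 and 0.222 and 0.107 for mt-Tp in the null and CD lines. The higher mt-Rnr2 of HE than of WT embryos was not called (0.60 in the null line, adjusted p = 1; 0.47 in the CD line, adjusted p = 0.428).

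No member was called between HE and WT embryos in either line, where 0.0104% of all genes were called in the null line and 0.0156% in the CD line. At an unadjusted p under 0.05 there were 4 members in the null line and 2 in the CD line, and DESeq2 called 0 in both. Both null HE embryos had Y-linked transcripts, at 257 and 270 CPM, and both null WT embryos had Xist, so genotype and sex cannot be told apart in these 4 null libraries. Without CD WT replicate 1, 2 members were called in the CD line. The homozygous effect was also set against itself between the lines. No member differed, where 0.0208% of all genes were called, 2 had an unadjusted p under 0.05 and DESeq2 called 0. mt-Cytb had the smallest adjusted p, with a CD effect lower than the null effect by 0.23 on the log2 scale (SE 0.08, adjusted p = 0.271). Without null HO replicate 1 or CD WT replicate 1, 1 member was called. The standard errors of this difference were 0.08 to 0.12 for the 7 mRNAs of the high class and 0.18 or more for the 6 of the low class, so differences of these sizes were not detectable.

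In yolk sacs no member was called between HO and WT in either line. In the null line 6.27% of all 17755 genes were called, 1 member had an unadjusted p under 0.05 and DESeq2 called 1. In the CD line 3.15% were called, 2 members had an unadjusted p under 0.05 and DESeq2 called 0. Without null HO replicate 2, 1 member was called higher in the null line. mRNA medians were 0.03 in the null line and -0.13 in the CD line, against 0.02 and 0.01 over all genes tested. Without CD HO replicate 2 the CD mRNA median was -0.11, against -0.01 over all genes. Yolk sac libraries varied more, with a common biological coefficient of variation of 0.165 against 0.087 in embryos, so a given change was harder to detect there.

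mt-Cytb was at 7116 and 5522 CPM in null HO, against 5818 and 6151 CPM in labelled WT yolk sacs, and the HO libraries enclosed the others. In CD yolk sacs it was at 6141 and 5420 CPM in HO, against 6660 and 6744 CPM in WT (change -0.21, SE 0.13, adjusted p = 0.373). Without CD HO replicate 2 that change was -0.14 and 0 members were called, beside 66 genes overall in place of 560. mt-Rnr2 was at 2705 and 2771 CPM in null HO, against 2586 and 2691 CPM in labelled WT yolk sacs, and at 2350 and 2293 CPM in CD HO, against 2182 and 2288 CPM in CD WT yolk sacs. Its changes were 0.05 (SE 0.12) in both lines, and 0.06 in the CD line without CD HO replicate 2. mt-Rnr1 varied more between replicates, with 988 and 675 CPM in CD HO, 1057 and 1609 CPM in CD HE, and 741 and 895 CPM in CD WT yolk sacs. Its level relative to mt-Rnr2 therefore also varied, and mt-Rnr2 was at 0.973 to 2.06 times mt-Rnr1 per length in yolk sac libraries, against 0.796 to 1.29 times in embryo libraries.

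Sex transcripts and visceral endoderm markers differed between the yolk sac groups too. Both CD HO yolk sacs carried Y-linked transcripts, at 217 and 212 CPM, with Xist at 16 and 7.65 CPM. Both CD WT yolk sacs had Xist at 1421 and 1531 CPM. Genotype and sex thus cannot be told apart among these CD HO and WT yolk sacs alone. With a sex term the CD changes of HO against WT were -0.37 for mt-Cytb, -0.32 for mt-Co1 (-0.12 without the term), -0.43 for mt-Nd6 (-0.16) and -0.71 for mt-Tp (-0.38), and none was called. In the null line Xist was at 18.1 and 1394 CPM in HO and at 1368 and 1486 CPM in labelled WT yolk sacs. Visceral endoderm markers, all 8 detected in each yolk sac, summed to 31790 and 28670 CPM in null HO yolk sacs, against 44930 and 39580 CPM in null HE and 41630 and 38860 CPM in labelled WT yolk sacs. They summed to 26450 and 35110 CPM in CD HO, against 39720 and 33700 CPM in CD HE and 40860 and 37780 CPM in CD WT yolk sacs. The part of these differences in the yolk sac results was not tested beyond the sex term.

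mt-Tp was the member with the smallest p in null yolk sacs, where it was lower in HO. It was at 21.6 and 18.3 CPM in null HO, at 38.4 and 33.1 CPM in null HE and at 29.4 and 33.7 CPM in labelled WT yolk sacs. The HO libraries lay below the others. Its change was -0.84 against HE (SE 0.21, adjusted p = 0.0317), where 8.19% of all genes were called, and -0.66 against labelled WT (SE 0.21, adjusted p = 0.088). Against labelled WT it was called by DESeq2 (adjusted p = 0.0261), with a sex term (adjusted p = 0.042), with only the groups compared (adjusted p = 0.0212) and without the filter (adjusted p = 0.00409). Against HE, 5 members had an unadjusted p under 0.05, and DESeq2 called 4 lower, mt-Tp, mt-Nd2 (-0.33), mt-Nd5 (-0.43) and mt-Nd6 (-0.54). Without any 1 library of the groups compared, 0 members were called against HE in edgeR. In CD yolk sacs mt-Tp was at 26.9 and 18.4 CPM in HO, against 29.5 and 29.7 CPM in WT. The change of -0.38 was not called and was -0.15 without CD HO replicate 2. No member was called in CD HO against HE yolk sacs, where 3.86% of all genes were called, 2 members had an unadjusted p under 0.05 and DESeq2 called 1. The smallest adjusted p there was that of mt-Rnr1 (change -0.68, adjusted p = 0.0954; -0.44 and 0.442 without CD HO replicate 2), and 1 member was called without CD HO replicate 1. HE against WT called 0 members and 0% of all genes in both lines, with 4 members at an unadjusted p under 0.05 in the null line, 1 in the CD line and 0 by DESeq2 in either. The CD and null effects in yolk sacs differed for 0 members, where 0.0282% of all genes were called, with 0 at an unadjusted p under 0.05 and 0 by DESeq2. Without CD HO replicate 2 it was again 0 members.

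The homozygous effect itself was compared between the tissues in 1 fit of all 24 libraries. In the null line 2 of 18 members differed, where 10.1% of all 20543 genes were called. mt-Co3 had an effect higher in yolk sac than in embryo by 1.28 (SE 0.36, adjusted p = 0.0299). It was at 25.6 and 10.6 CPM in HO against 15.1 and 13.1 CPM in labelled WT yolk sacs, so the value rested on HO replicate 1, and without that library it was 0.48 (adjusted p = 0.273). mt-Tp had an effect lower in yolk sac by 1.20 (SE 0.31, adjusted p = 0.0194), and its adjusted p reached 0.0733 without null embryo HO replicate 1. Without null yolk sac HO replicate 2, 5 members differed, and without either null embryo WT library or labelled WT replicate 2, 0 did. For mt-Nd4, mt-Co1 and mt-Cytb the difference was 0.41 to 0.43, with adjusted p-values of 0.0522, 0.0569 and 0.0741. DESeq2 called these 3 as well, so that 5 members differed, 4 of them higher and 1 lower, and so did edgeR with library totals alone, with scaling without the members and without the filter. With a sex term mt-Co1 and mt-Nd4 were called beside mt-Co3 and mt-Tp. Whether the effect on these 3 mRNAs differs between the tissues thus depends on the test and scaling. In the CD line 0 members differed, where 2.94% of all genes were called, 3 had an unadjusted p under 0.05 and DESeq2 called 1, and without CD yolk sac HO replicate 2 edgeR called 0.

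WT yolk sacs had higher mitochondrial transcripts than WT embryos. Over both lines, with 4 WT libraries per tissue, the 2 labelled WT null yolk sacs among them, 16 of 18 members were higher and 0 lower, where 71.7% of all genes were called, 34.2% higher and 37.4% lower. One of the 16, mt-Te, passed the filter in neither tissue alone. It entered the joint fit through yolk sac libraries in which it was higher, so the filter favoured its call, which is set aside. Of the 17 members that passed in each tissue, 15 were higher. The mRNA median was 1.33 on the log2 scale, against -0.08 over all genes tested. mt-Rnr2 was at 2182 to 2691 CPM in the WT yolk sacs, against 416 to 615 CPM in the WT embryos, and changed by 2.52 (SE 0.11, adjusted p = 7.77e-14). The tissues did not overlap, and mt-Rnr1 changed by 1.70 (SE 0.15). The 7 mRNAs of the high class changed by 1.33 (mt-Cytb) to 1.62 (mt-Nd6). Of the 6 mRNAs of the low class, 5 have an annotated copy on chromosome 1. Changes of these 6 ranged from -0.10 (mt-Co3, adjusted p = 0.63) to 0.94 (mt-Atp8, adjusted p = 0.0257). All 7 chromosome 1 copies, those of mt-Co1 and mt-Nd4 among them, were higher in WT yolk sacs, by 1.86 (Gm28661) to 3.03 (Gm28438).

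The calls of mt-Co2 (0.22, adjusted p = 0.0491) and mt-Atp6 (0.31, adjusted p = 0.043) were near the threshold and were lost without single libraries, with adjusted p up to 0.244 and 0.128. The call of mt-Atp8 was lost too, with adjusted p up to 0.258 without CD yolk sac WT replicate 1. With library totals alone as scaling the median of all genes moved to -0.39, and these became -0.10 and -0.00106. The tRNAs mt-Tp and mt-Tc were higher by 0.76 and 3.73. mt-Te had 2, 6, 10 and 6 counts in the WT yolk sacs, against 0, 0, 0 and 2 counts in the WT embryos. Counts of 1 and 2 were distributed differently in the tissues, as given above, so how the tables were made and tissue cannot be told apart. The tissues were checked by markers: visceral endoderm markers summed to 26450 to 44930 CPM in yolk sacs against 10.8 to 751 CPM in embryos, and cardiac markers to 7.05 to 15.5 CPM against 1091 to 1572 CPM.

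**Figure D5:**
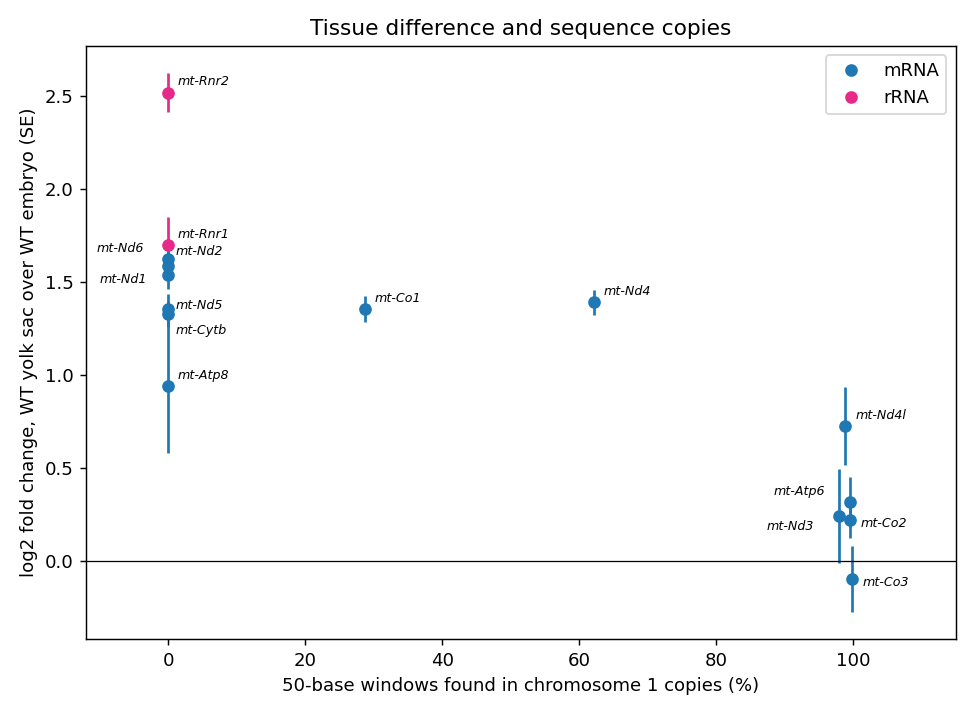
Log2 fold change of WT yolk sac over WT embryo (vertical axis) against the percentage of 50-base stretches of each mRNA and rRNA that occur in the chromosome 1 copies (horizontal axis); each point is a gene. The 5 genes at 98% to 99.9% lie between -0.10 and 0.72, and mt-Co1 and mt-Nd4, at 28.7% and 62.2%, lie at 1.35 and 1.39. Only annotated copies were searched, in stretches of 50 bases, which puts mt-Atp8 at 0%.

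In the reported fits the chromosome 1 copies were not called between HO and WT. In null embryos 0 of 7 were called and their changes were -0.21 to 0.46, with 0 at an unadjusted p under 0.05, and in CD embryos 0 of 7 were called at -0.62 to -0.31, with 2 at an unadjusted p under 0.05. DESeq2 called 0 in both. With a sex term, and with single libraries left out, only the copies listed beforehand were counted, without Gm10222. With a sex term 1 copy was called lower in CD HO against WT embryos. In null HO against WT embryos, copies were called higher when a single library was left out, so this result was not stable. In yolk sacs 0 of 7 were called in both lines, with 0 at an unadjusted p under 0.05 and 0 by DESeq2. Against HE, Gm28439, the copy of part of mt-Nd4, was lower in CD HO embryos (change -1.77, SE 0.43, adjusted p = 0.013). It was at 2.91 and 2.96 CPM in CD HO, against 15.8 and 4.24 CPM in CD HE embryos, so the size rested on HE replicate 1, and without that library it was -0.53 (adjusted p = 0.127). The call was also lost without either CD HO library (adjusted p = 0.077 and 0.0768). No other copy was called against HE in either line or tissue.

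Nuclear genes that act on the mitochondrial genome and its RNA were taken as lists. In null HO against WT embryos, 6 of 21 genes of mitochondrial DNA transcription and replication were higher and 1 lower (median 0.05), where 16.2% of all genes were higher and 16.5% lower. Mgme1, an exonuclease of mitochondrial DNA, changed by 0.81 (SE 0.10, adjusted p = 0.000111), Polg, the catalytic subunit of the mitochondrial DNA polymerase, by 0.64 (adjusted p = 0.0027) and Twnk, the replicative helicase, by 0.28 (adjusted p = 0.00615). Dna2, a nuclease and helicase, changed by -0.47 (adjusted p = 0.000682). Tfam, which packages mitochondrial DNA and starts its transcription, changed by 0.18 (adjusted p = 0.026). The RNA polymerase gene Polrmt (-0.23, adjusted p = 0.155) and its initiation factor Tfb2m (-0.02, adjusted p = 0.892) were not called. In CD embryos, where 6.93% of all genes were higher and 9.14% lower, 4 of the 21 were higher and 1 lower, Mgme1 at 0.63 (adjusted p = 0.0017) and Dna2 at -0.35 (adjusted p = 0.00878) among them.

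Of 40 genes for processing, modification and stability of mitochondrial RNA, 6 were higher and 11 lower in null HO embryos, and 2 were higher and 5 lower in CD HO embryos. As shares of the 40 these were 15% and 27.5% in the null line, beside 16.2% and 16.5% of all genes, and 5% and 12.5% in the CD line, beside 6.93% and 9.14%. Against HE, 5 were higher and 9 lower in null HO embryos, beside 15.2% and 15.1% of all genes, and 4 were higher and 10 lower in CD HO embryos, beside 10.2% and 11.9%. Elac2, the endonuclease that trims the 3′ end of tRNA precursors, changed by 0.57 in the null line (adjusted p = 0.000584) and by 0.35 in the CD line (adjusted p = 0.0196). Nsun2, an RNA methyltransferase, changed by 0.36 and 0.29 (adjusted p = 0.000194 and 0.00248). Lrpprc, which stabilises mitochondrial mRNAs, changed by 0.20 in the null line (adjusted p = 0.00548) and by 0.06 in the CD line (adjusted p = 0.409). Fastk, whose mitochondrial form is needed for mt-Nd6 mRNA, was the only gene of this list called lower in all 4 homozygous comparisons. It changed by -0.48 in null embryos (adjusted p = 0.00127), -0.32 in CD embryos (adjusted p = 0.0231), -0.75 in null yolk sacs (adjusted p = 0.00191) and -0.62 in CD yolk sacs (adjusted p = 0.00814). Mrm1, a methyltransferase of the 16S rRNA, was higher in yolk sacs, by 0.98 in the null line (adjusted p = 0.0291) and 1.03 in the CD line (adjusted p = 0.036). Without CD HO replicate 2, neither Fastk nor Mrm1 was called in CD yolk sacs.

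Among nuclear subunits of the respiratory complexes, 1 was higher and 19 lower of 79 in null HO embryos (median -0.12), and 1 was higher and 3 lower of 79 in CD HO embryos (median 0.02). The lower genes were 24.1% of the list in the null line, beside 16.5% of all genes, and 3.8% in the CD line, beside 9.14% of all genes. Against HE, 17 were lower in null HO embryos (21.5%, beside 15.1% of all genes) and 11 in CD HO embryos (13.9%, beside 11.9% of all genes), so the CD share lay below that of all genes against WT and above it against HE. The null count of 19 became 9 and 4 without WT replicate 1 and 2, and 29 and 11 without HO replicate 1 and 2. Atp5j2, a subunit of ATP synthase, had the smallest p in both lines, with changes of -1.20 (SE 0.06, adjusted p = 1.07e-07) and -0.99 (SE 0.06, adjusted p = 6.61e-07). Sdha, the flavoprotein of complex II, changed by -0.78 (adjusted p = 3.91e-06) and -0.63 (adjusted p = 4.18e-05). Of 77 mitochondrial ribosomal protein genes, 5 were higher and 17 lower in null HO embryos, and 3 were higher and 6 lower in CD HO embryos. The lower genes were 22.1% and 7.79% of this list. The null count of 17 became 8 and 10 without WT replicate 1 and 2, and 10 without HO replicate 2. Mrpl20 changed by -0.83 (adjusted p = 3.38e-05) and -0.41 (adjusted p = 0.00667). Of 12 regulators of mitochondrial biogenesis, 2 were higher and 2 lower in the null line and 0 higher and 2 lower in the CD line, so each count of 2 was 16.7% of the list, beside 16.2% higher and 16.5% lower of all genes in the null line and 9.14% lower in the CD line. Gabpa, the DNA-binding subunit of nuclear respiratory factor 2, changed by -0.18 (adjusted p = 0.0327) and -0.27 (adjusted p = 0.00778). With a sex term, 2 of the 27 genes of these 5 lists called in CD embryos stayed called, Atp5j2 (-0.99) and Sdha (-0.67). All 27 kept their direction with that term, 14 with a change as large or larger and 13 with a smaller one. Elac2 changed by 0.52 with the term, Dna2 by -0.32, Mgme1 by 0.45 and Fastk by -0.24.

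In yolk sacs few genes of these lists were called, beside 6.27% of all genes in the null line and 3.15% in the CD line. In null yolk sacs Mrm1 was higher, and Fastk, Top1mt, the mitochondrial topoisomerase (-0.71, adjusted p = 0.0208), and Mrpl10, a ribosomal protein gene (-0.45, adjusted p = 0.0499), were lower. In CD yolk sacs Mrm1 was higher, and Fastk and Mrpl10 (-0.70, adjusted p = 0.0125) were lower. These were all the calls on the 5 lists. Without CD HO replicate 2 there were none in the CD line. Without CD HO replicate 1, the library that stands apart from its tissue was the only CD HO library left. More respiratory subunits and ribosomal protein genes were then called lower. They were not set beside the share of all genes, so no change of these lists is read from that fit. Between WT yolk sacs and WT embryos, 69 respiratory subunits were higher and 2 lower of 79 (median 0.66), where 34.2% of all genes were higher and 37.4% lower, and 46 ribosomal protein genes were higher and 2 lower of 77 (median 0.32). Tfam was lower in WT yolk sacs by 0.41 (adjusted p = 2e-06), and Lrpprc was higher by 1.17 (adjusted p = 1.4e-13).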

How the data were processed

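The authors deposited 1 table per tissue with raw counts per gene for 12 libraries, and FPKM beside them in 24 columns that were not used. Per the submitters' processing notes, the tools were fastp 0.22.0, HISAT2 2.2.1, featureCounts 2.0.1 and DESeq2 1.32.0, with mm10 as the build. Read length, the annotation release, strand use and the treatment of reads with several matches do not appear in the labels or headers. Groups and replicate numbers come from the labels.

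The deposited counts were tested per tissue in edgeR 4.0.16 (R 4.3.3) with all 12 libraries, 1 coefficient per group, TMM scaling and filterByExpr (minimum count 10, minimum total 15). The filter kept 17755 yolk sac and 19215 embryo genes, with 6 residual degrees of freedom each. Comparisons between tissues used 1 fit of 24 libraries (20543 genes). The threshold was an adjusted p of 0.05. The fit was tested on simulated counts. CPM are counts scaled by the TMM-adjusted totals. Standard errors come from the F statistic. Replicates of each group differed beyond counting noise (chi-square per degree of freedom 2.95 to 32.3), so none was merged.

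Members came from the symbol rule and positions, lengths and sequences from GENCODE M21. All 13 mRNAs and both rRNAs could be named, with values per library for up to 4 members of smallest p per homozygous comparison, the rRNAs and mt-Nd6; of the lists, up to 4 called genes of smallest p and Polrmt, Tfam, Tfb2m, Twnk and Lrpprc. mt-Tt, the non-called regulators and Gm10222, which was added to the 6 listed copies, were named after their values were seen. Members, lists and tests were chosen with earlier results of these data known. Alternatives were other scalings (DESeq2 size factors, library totals, scaling without the members), DESeq2 1.42.0, no filter, a sex term, a replicate block, only the groups compared, and each library left out. Counts for the gene lists under these settings were added after seeing the data.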

Additional observations from a re-analysis of the deposited data

Results flagged for a closer look

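The effect of the null homozygous genotype differed between yolk sac and embryo for 2 members, by the test of the difference in edgeR's joint fit. In yolk sac that effect was taken against the labelled WT libraries, whose Setd2 level goes against their label. For mt-Co3, a complex IV subunit, the effect in yolk sac was higher than in embryo by 1.28 on the log2 scale (adjusted p = 0.0299), with changes of 0.37 in yolk sac and -0.94 in embryo. The CPM of mt-Co3 were 25.6 and 10.6 in null HO yolk sacs and 12.2 and 8.76 in null HO embryos, and without yolk sac HO replicate 1 the difference was 0.48 (adjusted p = 0.273). For mt-Tp, the proline tRNA, the difference was -1.20 (adjusted p = 0.0194), with changes of -0.66 in yolk sac and 0.51 in embryo. Without single libraries the adjusted p of mt-Tp was 0.0241 to 0.0733. Neither difference was called in the CD line, where it was 0.34 for mt-Co3 (adjusted p = 0.672) and -0.71 for mt-Tp (adjusted p = 0.239). Groups of 2 libraries were too small for a test of single libraries.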

How the results depend on the processing

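Counts of called members that moved by over 1.5 times are given here, with the reported count in brackets where it was not 0; the cause was not tested. With only the groups compared in the fit, null HO against WT embryos gave 7 (11), null HE against WT embryos 3, null HO against WT yolk sacs 1 and the null difference between tissues 1 (2). A sex term gave 3 in CD HO against WT embryos (10), 6 in CD HO against HE embryos (11), 1 and 2 in null HO against WT and HE yolk sacs (0 and 1) and 4 in the null difference between tissues (2). Without a filter there were 1 in null and 3 in CD HE against WT embryos, 1 in CD minus null embryos, 1 in null HO against WT, 4 in null HO against HE and 1 in null HE against WT yolk sacs, 1 in CD HO against HE and 1 in CD HE against WT yolk sacs, and 5 and 2 in the null and CD differences between tissues. DESeq2's test gave 1 and 4 in null HO against WT and HE yolk sacs, 1 in CD HO against HE yolk sacs, and 5 and 1 in the null and CD tissue differences. That null tissue difference was 5 with library totals alone and 5 with scaling without the members.

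With single libraries left out, the ranges were 6 to 10 (null HO against WT embryos), 9 to 12 (null HO against HE embryos), 6 to 8 (CD HO against WT embryos), 6 to 7 (CD HO against HE embryos), 0 to 2 (CD HE against WT embryos), 0 to 1 (CD minus null embryos), 0 to 1 (null HO against WT yolk sacs), 0 to 0 (null HO against HE yolk sacs), 0 to 1 (CD HO against HE yolk sacs), 13 to 14 (WT tissues) and 0 to 5 (null tissue difference). A lone library was assumed to vary like the other groups. Under the alternatives, called members were followed in each comparison. In HO against WT, mt-Rnr1, mt-Rnr2, mt-Nd6, mt-Tp, mt-Cytb and mt-Co1 were followed whether called or not. Changes of sign in other members were not counted. An example is mt-Nd4l in CD HO against WT yolk sacs (-0.095, and 0.015 without HO replicate 2). Changes of sign with a call in either value were mt-Rnr1 in null HO against WT embryos (-0.35 without HO replicate 2; single libraries left out gave -0.35 to 0.40) and, between WT tissues with library totals alone, mt-Co2 (-0.10) and mt-Atp6 (-0.00106). The other 16 changes of sign among the values followed were called in neither value. All were in HO against WT, the only comparisons in which uncalled members were followed. With a sex term they were mt-Rnr1 in CD embryos (-0.22), null yolk sacs (-0.011) and CD yolk sacs (-0.25), mt-Rnr2 in null (-0.028) and CD yolk sacs (-0.12), and mt-Cytb in null yolk sacs (-0.00444). With single libraries left out they were in mt-Rnr2 in null (-0.048 to 0.24) and CD embryos (-0.29 to 0.28, and 0.024 without HO replicate 2), mt-Rnr1 in null (-0.038 to 0.27) and CD yolk sacs (-0.28 to 0.26, and -0.11 without WT replicate 1), mt-Co1 (-0.079 to 0.28), mt-Nd6 (-0.42 to 0.050) and mt-Cytb (-0.13 to 0.23) in null yolk sacs, and mt-Nd6 in CD yolk sacs (-0.39 to 0.032). Of the values followed for single members under all alternatives, 891 kept direction and side of the threshold, 134 lost the call, 11 gained it and 19 changed sign. Lower respiratory subunits in null embryos were 8 to 23 under settings other than leaving out a library (19 as reported).

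Replicate numbers are shared by the groups but nothing ties them to animals: correlations of same-numbered deviations were -0.352 to 0.146 in embryos and -0.254 to 0.497 in yolk sacs over 15 pairs of groups each. With a replicate block the counts were 10 and 12 (null HO against WT and HE embryos), 10 and 12 (the same in CD), 1 (null HO against HE yolk sacs), 15 (WT tissues) and 2 (null tissue difference), and 0 elsewhere. mt-Atp8 and the tRNAs other than mt-Tp had at most 17 counts per embryo library and 37 per yolk sac library. Such low counts limit what could be detected for these members.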
